A study of Rattus norvegicus with 84 samples.

Results

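The histone genes of the rat genome were followed in the RNA cargo of extracellular vesicles (EVs) from brain and plasma, before stroke and through the month after it. Members were all rows of the rat mRNA table whose gene name starts with Hist1 to Hist4, H1f, H2af or H3f3, which gave 46 of 18782 annotated genes. Of these, 35 were replication-dependent genes (Hist), comprising 5 linker H1, 13 H2A, 11 H2B, 3 H3 and 3 H4 genes. The other 11 were variant genes (H1f, H2af, H3f3), comprising 3 linker H1, 6 H2A and 2 H3 genes. The names alone set the membership, and no expression value entered the rule, which was chosen with earlier results of these data known.

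EVs were taken from 21 wild-type male Sprague-Dawley rats in 7 groups of 3, with 1 brain and 1 plasma long-RNA library per rat, 42 libraries in all. Healthy rats are described as adult, with neither age nor handling given in the sources used here. The 18 stroke rats were 8 to 12 weeks old and had a 90 min transient occlusion of the middle cerebral artery (tMCAO); at 3 days after stroke they received either saline (control) or 200000 human neural stem cells (hNSCs) through the carotid artery, and they were killed at 4, 10 or 31 days after stroke. Day 4 therefore lies 1 day after the injection. Brain EVs came from the ipsilateral hemisphere, so each library mixes vesicles of every cell type there, and fewer cells of a type and less RNA per cell cannot be told apart. No sham-operated group is among the labels, so stroke, surgery and saline injection cannot be told apart in a comparison with healthy rats. Each rat is a separate animal, so the replicate error is between animals.

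Histones are the proteins around which DNA is wound, with H2A, H2B, H3 and H4 forming the nucleosome core and H1 binding the linker DNA. Replication-dependent genes lie in clusters, are transcribed in S phase of the cell cycle, and mostly give messages that end in a stem-loop instead of a poly(A) tail. Most variant genes are transcribed throughout the cell cycle, also in cells that no longer divide such as neurons, and mostly give polyadenylated messages. The library kit primed total RNA at random without poly(A) selection, so messages of both kinds could be captured. Many Hist genes of 1 family are near-identical copies, and how reads with several matches were assigned is not given in the sources used here, so values of single H2A, H2B, H3 and H4 copies are uncertain, whereas sums over a family depend on this less.

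Depth on annotated genes ran from 569136 to 15587216 counts in brain EV libraries and from 6357675 to 31028559 in plasma EV libraries, which leaves the brain values less precise. The share of counts on annotated genes differed between brain groups, at 7.11 to 20.9% in healthy rats, 22.0 to 25.3%, 11.3 to 13.4% and 30.3 to 43.0% in control rats at 4, 10 and 31 days, and 10.6 to 20.6%, 3.18 to 16.9% and 29.9 to 51.9% in hNSCs rats at 4, 10 and 31 days. Between 23 and 45 members were detected in a brain library and between 37 and 44 in a plasma library. As a gauge of stray reads, 343 olfactory and vomeronasal receptor genes, which neither tissue is known to use, summed to 0 to 53.4 CPM, that is, counts scaled to library size in brain. In plasma their median was 13.96 CPM, but the hNSCs day 4 rat 2 library reached 1179 CPM and the hNSCs day 10 rat 3 library 275 CPM. All 5 neuronal, 4 oligodendrocyte and 4 astrocyte markers were lower in plasma than in brain, and all 5 platelet, 5 red cell and 4 liver markers were higher, so tissue labels and markers matched for these lists. The 5 microglia markers did not separate the tissues. In healthy rats they summed to 41.6 to 71.1 CPM in brain and 108 to 309 CPM in plasma. In control rats at 4 days the order was reversed, at 252 to 478 CPM in brain and 102 to 229 CPM in plasma.

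Levels between genes were compared per transcript length, as mean FPKM (fragments scaled to transcript length and library size) over the 21 libraries of a tissue. In brain EVs the most abundant replication-dependent genes were the linker histone gene Hist1h1d at 10.4 FPKM, the H2A gene Hist2h2aa3 at 5.76 FPKM and the linker gene Hist1h1c at 5.19 FPKM, together 47.0% of the class sum. Hist2h3c2 (H3), Hist1h1b (H1), Hist2h2ac (H2A), Hist1h2bh (H2B) and Hist1h2ai (H2A) came next, and these 8 made up 74.8%. Among variants, H3f3b, which encodes the replacement histone H3.3, had 5.09 FPKM, H2afy, which encodes the large macroH2A variant, 3.56 FPKM, and H1f0, a linker histone of non-dividing cells, 3.13 FPKM, together 70.1%. H2afz (H2A.Z), H1fx (the linker variant H1X), H2afx (H2A.X, which is phosphorylated at DNA breaks), H2afj and H2afv followed. Plasma EVs had the same 2 leaders at far higher levels, with Hist1h1d at 201 FPKM and Hist2h2aa3 at 173 FPKM, followed by Hist1h2bh at 143 FPKM and Hist1h1c at 115 FPKM. Hist2h3c2, Hist2h2ac, Hist1h2ao and Hist1h2ai completed the first 8. The leading plasma variants were H3f3b at 62.4 FPKM, H2afz at 42.5 FPKM and H2afj at 26.9 FPKM, ahead of H3f3c, H2afy, H2afv, H1f0 and H2afx.

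Promoters are shown because the members of a class share sequence elements that the naming rule did not use. RefSeq (GRCr8) held a promoter window of 250 bases before to 50 after the start for 36 members under their own entry, 27 replication-dependent and 9 variant. The 250 bases before the start are printed 5′ to 3′ for 3 replication-dependent genes and 2 variants. Capitals mark the H1 box AAACACA, the CCAAT box CCAAT, the TATA box TATAAA and the octamer ATGCAAAT, on either strand. Hist1h1b (RefSeq H1f5) lies at chr17:47421625-47421874, plus strand, Hist2h3c2 at chr2:186525912-186526161, plus strand, Hist1h2bk (RefSeq H2bc12) at chr17:47181941-47182190, minus strand, H1fx (RefSeq H1f10) at chr4:121998898-121999147, minus strand, and H3f3b at chr10:101757637-101757886, minus strand. The count tables were made on Rnor_6.0, so these GRCr8 positions are not those of the tables.
Hist1h1b: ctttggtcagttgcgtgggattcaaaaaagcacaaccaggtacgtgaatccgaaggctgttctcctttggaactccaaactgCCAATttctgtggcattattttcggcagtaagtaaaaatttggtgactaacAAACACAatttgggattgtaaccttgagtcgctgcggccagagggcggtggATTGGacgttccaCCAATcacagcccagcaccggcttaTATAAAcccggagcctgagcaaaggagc
Hist2h3c2: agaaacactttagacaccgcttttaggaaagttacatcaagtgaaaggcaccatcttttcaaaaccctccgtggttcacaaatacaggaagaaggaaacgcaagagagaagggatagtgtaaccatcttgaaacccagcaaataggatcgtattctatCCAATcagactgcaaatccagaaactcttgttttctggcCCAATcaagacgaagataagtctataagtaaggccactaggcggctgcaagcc
Hist1h2bk: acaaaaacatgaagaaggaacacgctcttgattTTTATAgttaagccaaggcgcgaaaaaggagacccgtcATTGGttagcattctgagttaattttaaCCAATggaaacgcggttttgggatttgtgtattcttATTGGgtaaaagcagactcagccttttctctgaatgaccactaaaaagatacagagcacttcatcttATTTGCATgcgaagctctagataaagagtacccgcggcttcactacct
H1fx: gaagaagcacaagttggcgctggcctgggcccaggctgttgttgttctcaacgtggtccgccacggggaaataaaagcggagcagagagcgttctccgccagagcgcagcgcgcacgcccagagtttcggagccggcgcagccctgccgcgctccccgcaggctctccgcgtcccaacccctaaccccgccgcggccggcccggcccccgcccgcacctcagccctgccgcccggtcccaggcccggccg
H3f3b: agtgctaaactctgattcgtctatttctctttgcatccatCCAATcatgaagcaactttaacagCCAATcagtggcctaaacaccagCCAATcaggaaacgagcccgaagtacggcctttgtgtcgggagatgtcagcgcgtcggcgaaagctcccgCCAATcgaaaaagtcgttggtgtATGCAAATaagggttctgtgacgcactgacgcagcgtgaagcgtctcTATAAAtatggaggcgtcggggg
Hist1h1b carried the H1 box, 3 CCAAT boxes and a TATA box, and the H2B gene Hist1h2bk carried the octamer. H1fx held none of the 4 motifs in its window, and H3f3b held 4 CCAAT boxes, the octamer and a TATA box.

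Over the whole 300-base windows, a CCAAT box was present in 25 of 27 replication-dependent promoters (92.6%), 4 of 9 variant promoters (44.4%) and 37.5% of all 33469 promoters in the table. The TATA box was found in 17 of 27 (63%), 2 of 9 (22.2%) and 14.2%, respectively. The octamer, known from H2B promoters, occurred in 11 of 27 (40.7%), in 1 of 9 variants and in 1.78% of all, and by family in 5 of 9 H2B and 6 of 12 H2A promoters of the replication-dependent class. An H1 box was found in 5 of 27 (18.5%), in 0 of 9 variants and in 6.99% of all. Some H2A and H2B windows overlap on opposite strands. The CCAAT boxes and octamer of Hist1h2aa mirror those of Hist1h2ba, and those of Hist3h2a mirror those of Hist3h2bb. The same letters then count for both genes, so the shares are not over independent windows. A letter match describes the window and shows no bound factor.

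In brain EVs, summed replication-dependent transcripts were several-fold above healthy rats at 4 days after stroke, varied widely between rats at 10 days, and were near the healthy level at 31 days on the normalised CPM scale. In the 3 healthy rats the sum was 197, 256 and 152 CPM. In control rats it was 2115, 1174 and 861 CPM at 4 days, 376, 2190 and 688 CPM at 10 days, and 253, 324 and 238 CPM at 31 days. Every control rat at 4 and 10 days lay above every healthy rat, while the ranges at 31 days overlapped. The means ± SD (n = 3) were 202 ± 52.5 CPM in healthy rats and 1383 ± 653, 1085 ± 970 and 272 ± 46.1 CPM at 4, 10 and 31 days, or 6.86-, 5.38- and 1.35-fold the healthy mean. The variant sum was 388 ± 62.5 CPM in healthy rats (315 to 424) and 906 ± 82.2 CPM at 4 days (813 to 971), which is 2.34-fold, with 1.80-fold at 10 days and 1.00-fold at 31 days. The day 31 values depend on the scale, since on summed FPKM the day 31 ratio was 5.07-fold for replication-dependent and 4.57-fold for variant genes. No p-value was given to these sums.

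**Figure D1:**
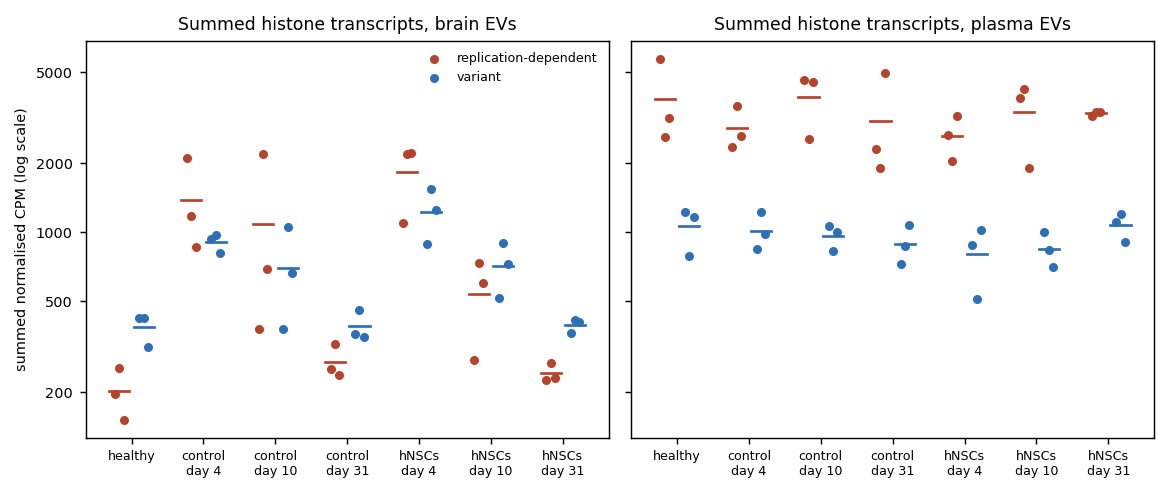
Summed normalised CPM (log axis) of the 35 replication-dependent and 11 variant histone genes in each group, for brain EVs (left) and plasma EVs (right). Points are single rats and short lines are means of 3. In brain the replication-dependent points lie at 152 to 256 CPM in healthy rats and at 861 to 2115 CPM in control rats at 4 days. In plasma the replication-dependent points of all groups lie between 1905 and 5727 CPM.

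The ratio of the replication-dependent sum to the variant sum within 1 library needs no scaling between libraries. It was 0.464, 0.606 and 0.482 in healthy brain EVs and 2.27, 1.21 and 1.06 in control rats at 4 days, so by counts the replication-dependent class was the smaller of both classes in every healthy rat and the larger in every control rat at 4 days. At 10 days it was 0.991, 2.08 and 1.04, again above every healthy rat. By 31 days it had come down to 0.702, 0.710 and 0.684, still above all 3 healthy values. In hNSCs rats it was 1.23 to 1.77 at 4 days, 0.540 to 0.824 at 10 days and 0.570 to 0.650 at 31 days, and the 10-day range lay below that of control rats (0.991 to 2.08). Per transcript length, on summed FPKM, the class was already the larger in healthy rats, with ratios of 1.16, 1.69 and 1.16, against 5.75, 3.11 and 2.42 at 4 days and 2.79, 5.03 and 2.77 at 10 days. On that scale the day 31 ratios of control rats, 1.49, 1.73 and 1.57, overlapped the healthy rats. By counts, plasma EV ratios ran from 2.19 to 5.06 over the 21 rats, above all but 1 brain library, the control day 4 rat 1 library at 2.27.

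**Figure D2:**
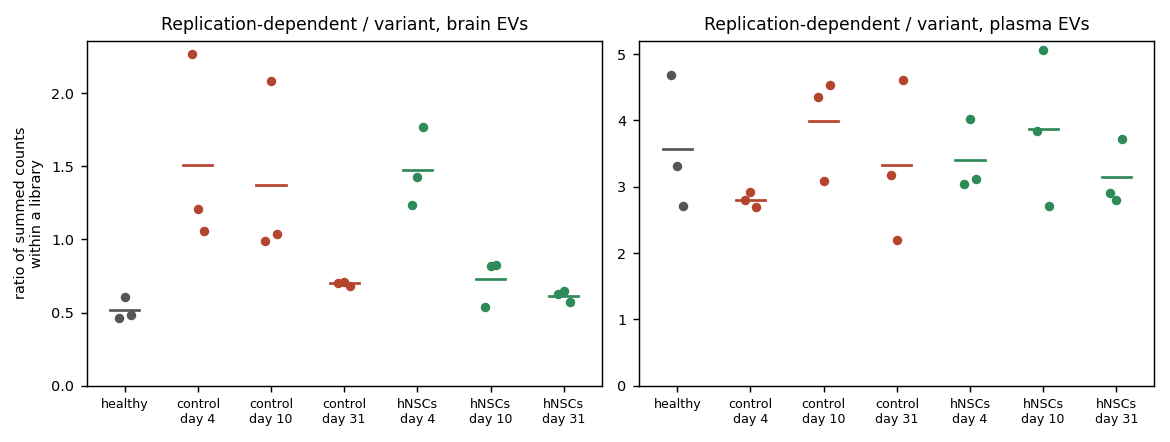
Ratio of summed replication-dependent to summed variant histone counts within each library (vertical axis from 0, no unit), by group, for brain EVs (left) and plasma EVs (right). Points are single rats and lines are means of 3. Brain ratios lie at 0.464 to 0.606 in healthy rats and at 1.06 to 2.27 in control rats at 4 days.

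By family, the linker H1, H2A, H2B and H3 sums of the replication-dependent class did not overlap between the 3 healthy rats and the 3 control rats at 4 days. The H1 sum was 67.5 to 110 CPM in healthy rats and 516 to 1210 CPM at 4 days. H2A was at 36.9 to 79.5 CPM and 187 to 468 CPM, and H3 at 7.19 to 12.1 CPM and 86.6 to 194 CPM. The gap was narrow for H2B (19.98 to 58.2 CPM against 59.8 to 185 CPM), and the H4 ranges overlapped (2.87 to 13.3 CPM against 10.8 to 57.6 CPM). Among variants, the linker H1 sum was 69.2 to 130 CPM in healthy rats and 311 to 526 CPM at 4 days, the H3 sum 67.2 to 122 CPM and 202 to 292 CPM, and the H2A sum 172 to 213 CPM and 243 to 297 CPM. Linker H1 genes held 57.2 to 60% of the replication-dependent sum in the control rats at 4 days by CPM, and 46.7 to 51.1% by FPKM.

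Tests of single genes used edgeR's quasi-likelihood test with Benjamini-Hochberg adjustment over all genes tested in a tissue, here called the edgeR adjusted p. A gene was called when this p was under 0.05 and the change over 1.5-fold. In brain, 30 replication-dependent and 10 variant members had enough counts to be tested, and some of those passed only through the groups in which they were high. Control rats at 4 days against healthy rats asks what the early phase of stroke did to the brain EV cargo. Of the 40 tested members 6 were called higher and 0 lower, beside 0.730% of all 14515 genes tested called higher. Each of the 6 is among the first 8 of its class by brain FPKM. That rank rests on a mean over all brain groups, including those in which these genes are high, so it partly restates the call. It does not show that these genes are among the most abundant of their class in healthy rats.

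Hist1h1d, a linker histone gene, had 12.2, 54.9 and 26.7 CPM in healthy brain EVs and 454, 310 and 179 CPM in control rats at 4 days. Its log2 fold change was 3.30 (SE 0.576, edgeR adjusted p = 0.0112). Hist1h1c, another linker gene, had 47.4, 47.2 and 41.6 CPM against 582, 304 and 227 CPM. The groups of both genes did not overlap, and the change of Hist1h1c was 3.03 log2 units (SE 0.589, edgeR adjusted p = 0.0155). Hist1h1b, the linker gene whose promoter with the H1 box is printed above, had 7.19, 5.54 and 0.563 CPM against 148, 52.1 and 85.3 CPM. Its log2 fold change of 4.48 was the largest of the 6 (SE 0.933, edgeR adjusted p = 0.0214).

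Among core histones, the H3 gene Hist2h3c2 had 6.47, 7.75 and 12.1 CPM in healthy rats and 188, 100 and 86.2 CPM at 4 days, a log2 fold change of 3.81 (SE 0.840, edgeR adjusted p = 0.0282). The H2A gene Hist2h2aa3 had 12.2, 20.6 and 13.8 CPM against 154, 114 and 68.2 CPM, a change of 2.84 (SE 0.628, edgeR adjusted p = 0.0286). The single variant called was the linker H1fx, with 15.1, 60.7 and 27.9 CPM against 338, 166 and 118 CPM, a change of 2.57 (SE 0.551, edgeR adjusted p = 0.0252). In each of these 3 genes the lowest control rat lay above the highest healthy rat. Of the 6, only Hist1h1b, Hist2h3c2 and H1fx had a promoter window, and that of H1fx holds none of the 4 motifs. Hist1h1c, Hist1h1d and Hist2h2aa3 matched no single RefSeq entry, so their promoters were not searched.

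**Figure D3:**
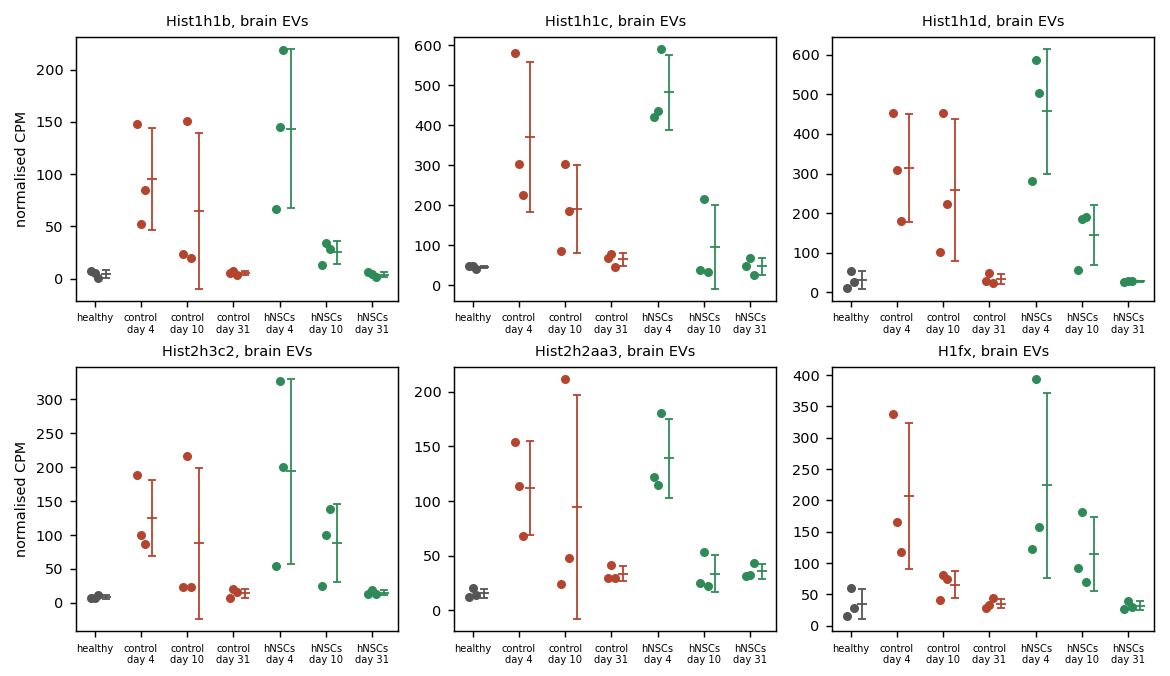
Normalised CPM of the 6 histone genes called in brain EVs at 4 days after stroke, 1 panel per gene, linear axes that start at or below 0. Points are single rats, and the dash with bars beside them is the mean ± SD of 3 in each of the 7 groups. For Hist1h1d the 3 healthy rats lie at 12.2 to 54.9 CPM, the day 4 control rats at 179 to 454 CPM and the day 31 control rats at 24.3 to 49.2 CPM.

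Several other abundant members had higher fitted means at 4 days without passing the test. Hist1h2ai (H2A) had 0, 2.66 and 0.281 CPM in healthy rats and 80.0, 26.8 and 12.8 CPM at 4 days, with a log2 fold change of 5.16 (SE 1.55, edgeR adjusted p = 0.109). Hist2h2ac (H2A) differed by 2.54 (SE 0.957) and Hist1h2bh (H2B) by 2.20 (SE 1.09), and both had an edgeR adjusted p over 0.05 (0.197 and 0.361). H2afx had 2.16, 7.97 and 2.25 CPM against 11.5, 41.99 and 47.4 CPM, a difference of 2.99 (SE 1.02, edgeR adjusted p = 0.158). H3f3b had 111, 119 and 58.8 CPM against 270, 199 and 202 CPM, a difference of 1.22 (SE 0.482, edgeR adjusted p = 0.222). In these 3 genes with per-rat values the groups did not overlap, and the adjusted p missed the threshold. The share of all genes tested without overlap was not determined, so lack of overlap here and above sets no gene apart.

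Among the other variants, H2afy lay close to its healthy level. It had 165, 124 and 145 CPM in healthy rats and 116, 155 and 146 CPM at 4 days, a log2 difference of -0.06 (SE 0.363). H1f0 had 79.8, 69.1 and 41.4 CPM against 59.6, 360 and 193 CPM, so 1 of the control rats fell within the healthy range, with a log2 difference of 1.69 (SE 0.875). H2afz differed by 0.95 (SE 1.25), H2afj by 2.05 (SE 1.72) and H2afv by 2.37 (SE 1.65), and none of these 3 passed the test.

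Several Hist genes had no count in any healthy brain library. Hist1h3a, an H3 gene, had 66 counts over the control rats at 4 days and was at least 15.1-fold higher against a floor of 3 counts over the 3 healthy libraries. By the same floor Hist1h1t, the testis-type linker gene, was at least 8.22-fold and Hist1h2bl (H2B) at least 6.16-fold higher. These bounds pool the counts of a group and take no account of spread between rats. Control day 4 rat 3 was at 0 for Hist1h3a (5.48, 10.1 and 0 CPM) and for Hist1h2bl (3.43, 2.08 and 0 CPM). None of the 3 was called.

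Over the tested members, 37 of 40 fitted differences at 4 days were positive, 28 of 30 replication-dependent and 9 of 10 variant, beside 7555 of all 14515 genes. Members that passed the filter only through groups in which they were high favour this sign. An unadjusted p under 0.05 was reached by 18 of 40 (45%), beside 14.8% of all genes. Median log2 fold changes were 3.16 for replication-dependent members (2.93 with the 3 genes absent in healthy rats set to their bounds), 1.45 for variants and 0.05 for all genes tested. The call count depended on single rats. It was 0 without control day 4 rat 1, 4 without its rat 2 and 6 without its rat 3; it was 0 without healthy rat 1, 2 without healthy rat 2 (H1fx and Hist1h1d) and 0 without healthy rat 3. The median over the members was 2.46, and the log2 fold changes of the 6 genes kept their sign in each of these fits, from 2.02 to 3.21 for H1fx and from 3.89 to 4.91 for Hist1h1b. DESeq2 called 12 of 43 members higher at 4 days, beside 4.25% of all genes called higher.

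At 10 days, control rats had 2 members called higher, beside 0.537% of all genes. Hist1h1d had 101, 454 and 223 CPM, all above the healthy rats, with a log2 fold change of 3.02 (SE 0.570, edgeR adjusted p = 0.0193). Hist1h1b had 23.9, 151 and 19.95 CPM, a log2 fold change of 3.92 (SE 0.915, edgeR adjusted p = 0.0483). Hist2h2aa3 (2.59, SE 0.623, edgeR adjusted p = 0.0579) and Hist2h3c2 (3.30, SE 0.825, edgeR adjusted p = 0.0718) were just outside the threshold.

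Rat 2 was the highest control rat at 10 days for each of the 5 replication-dependent genes called at 4 days. Hist2h3c2, for example, had 23.0, 216 and 23.9 CPM, and Hist2h2aa3 had 23.9, 212 and 47.9 CPM. Without this rat 0 members were called and the median log2 fold change over the members fell from 2.31 to 0.70. Without control day 10 rat 1 the count was 5 and without its rat 3 it was 4, while it was 0, 1 and 0 without healthy rats 1, 2 and 3. H1fx was at 41.3, 80.7 and 75.2 CPM, overlapping the healthy rats, with a difference of 0.91 (SE 0.530). Medians were 2.81 for replication-dependent members (2.57 with bounds), 0.74 for variants and 0.00 for all genes.

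At 31 days 0 members were called against healthy rats, beside 0.00689% of all genes, with 1 of 40 members (2.5%) at an unadjusted p under 0.05, beside 7.14% of all genes, and 0 called by DESeq2, beside 1.17%. Hist1h1d had 29.7, 49.2 and 24.3 CPM, within the healthy range, and Hist1h1c had 68.5, 78.4 and 46.5 CPM. H3f3b had 116, 108 and 109 CPM. Median log2 fold changes were 0.69 for replication-dependent members (0.59 with bounds), 0.11 for variants and 0.24 for all genes. On log2(FPKM + 1), limma called 10 of 16 tested members higher at this time, but on that scale 96.9% of all genes were called higher and their median was shifted by 1.33.

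The direct comparison of 31 with 4 days, added after the first results were seen and free of healthy rats, gave 2 members lower in control rats, beside 0.131% of all genes called lower. Hist1h1d was lower by a log2 fold change of -3.19 (SE 0.569, edgeR adjusted p = 0.0179) and H1fx by -2.55 (SE 0.547, edgeR adjusted p = 0.0488). Of 40 members 39 had a negative difference, beside 6368 of all 14515 genes, and the limit of the filter given for 4 days applies here too. On log2(FPKM + 1), limma called 6 of 16 tested members lower and 0 higher, while 51.2% of all genes were called higher and 0.535% lower. With 1 rat left out, Hist1h1d alone was called without control day 4 rat 3 or control day 31 rat 2, and 0 members without control day 4 rat 1 or 2 or control day 31 rat 1 or 3.

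**Figure D4:**
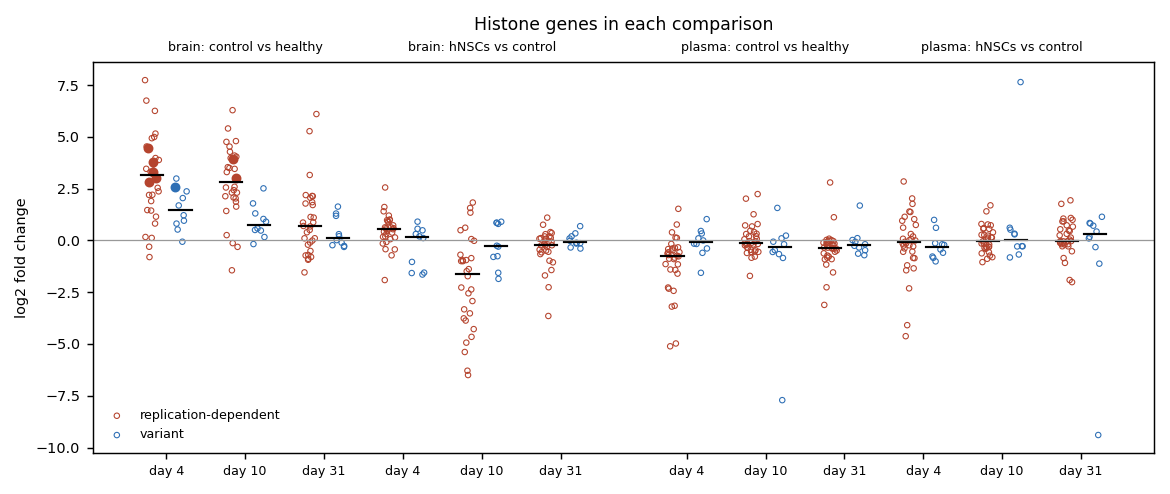
Log2 fold change of each tested histone gene (points) in each group comparison of brain and plasma EVs, replication-dependent and variant genes in separate colours and short lines at the class medians. Filled points were called (edgeR adjusted p under 0.05 and over 1.5-fold). Filled points are found in brain EVs at 4 and 10 days against healthy rats, 6 and 2 of them, and in no plasma comparison.

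Transplanted hNSCs did not give a detectable difference from saline in single histone genes of brain EVs at this depth and with 3 rats a group. In these comparisons 0 members were called at 4, 10 and 31 days, beside 0% of all 14515 genes on each day, and 0, 7 and 0 members had an unadjusted p under 0.05. At 10 days these 7 of 40 (17.5%) stand beside 13.4% of all genes, and at 4 and 31 days the share of all genes was 7.53% and 0.0896%. DESeq2 called 0, 4 and 0 members, beside 1.47%, 4.54% and 0.0119% of all genes. At 4 days Hist1h1d had 281, 586 and 504 CPM in hNSCs rats and Hist1h1c 420, 435 and 591 CPM, both overlapping the control rats. The replication-dependent sum was 1840 ± 642 CPM (SD, n = 3) against 1383 ± 653 CPM in control rats, 1.33-fold, but the direction depends on the scale, with 0.895-fold on summed FPKM and 0.931-fold on CPM of all rows.

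At 10 days the hNSCs rats were lower in many replication-dependent genes without a call, with a median difference of -1.61, compared with -0.28 for variants and -0.34 for all genes. The 4 of 40 genes called lower by DESeq2, beside 4.14% of all genes called lower, were Hist2h2ac, Hist1h2ai, Hist1h2bh and Hist1h2an, of which the last was named after its values were seen. Hist1h2ai, for example, had 1.42, 0 and 1.51 CPM in hNSCs rats and 4.26, 80.7 and 7.98 CPM in control rats. Hist1h2bh had 11.01, 0 and 0 CPM against 10.2, 153 and 26.6 CPM, which overlap. Without control day 10 rat 2 the median over all members was 0.18, so the direction rested on this rat, and without hNSCs day 10 rat 1 the edgeR count was 1 (Hist1h2bh, lower). The hNSCs rats of this day also had the fewest members detected, 23 to 36. At 31 days the medians were -0.20 and -0.06.

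Set against healthy rats, a comparison added after the first results were seen, hNSCs rats at 4 days had 6 members called higher, beside 1.65% of all genes. These comparisons share the 3 healthy rats with those of the control rats. The log2 fold changes were 3.84 for Hist1h1d (SE 0.589, edgeR adjusted p = 0.00210), 3.41 for Hist1h1c (SE 0.599, edgeR adjusted p = 0.00499) and 5.07 for Hist1h1b (SE 0.957, edgeR adjusted p = 0.00744). They were 4.44 for Hist2h3c2 (SE 0.863), 3.15 for Hist2h2aa3 (SE 0.636) and 2.68 for H1fx (SE 0.553), with edgeR adjusted p of 0.00915, 0.0109 and 0.0125. The count was 3 without healthy rat 1 (Hist1h1c, Hist1h1b, Hist1h1d) and 3 without healthy rat 3 (Hist2h3c2, Hist1h1c, Hist1h1d), and 5 or 6 without any other single rat of these groups. At 10 and 31 days 0 members were called in hNSCs rats, beside 0.0758% and 0.0344% of all genes, and 7 and 0 of 40 had an unadjusted p under 0.05, beside 12.7% and 6.88%. DESeq2 called 4 and 0 members, beside 3.85% and 1.25% of all genes. Without hNSCs day 10 rat 1, Hist2h3c2 and Hist1h1d were called higher and Hist1h2bh lower at 10 days.

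Between 4 and 31 days, 5 members were called lower within hNSCs rats, beside 0.682% of all genes called lower. They were Hist1h1d (-4.04, SE 0.591, edgeR adjusted p = 0.00105), Hist1h1c (-3.35, SE 0.593, edgeR adjusted p = 0.00450), Hist1h1b (-5.17, SE 0.940, edgeR adjusted p = 0.00532), H1fx (-2.80, SE 0.553, edgeR adjusted p = 0.0116) and Hist2h3c2 (-3.69, SE 0.819, edgeR adjusted p = 0.0266). On log2(FPKM + 1), limma called 4 of 16 members lower and 3 higher here, while 84.3% of all genes were called higher and 0.302% lower. Without hNSCs day 31 rat 3 Hist1h1d alone was called, and without hNSCs day 4 rat 2 or hNSCs day 31 rat 1 the 3 linker genes Hist1h1b, Hist1h1c and Hist1h1d.

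Other genes of histone supply were followed in the same fits. Of 24 genes of S phase and mitosis, 19 could be tested in brain, and 1 was called higher and 0 lower in control rats at 4 days. This was Mki67, the gene of the proliferation marker Ki-67, with 0, 9.52 and 1.97 CPM in healthy rats and 237, 137 and 118 CPM at 4 days, a log2 fold change of 5.26 (SE 1.14, edgeR adjusted p = 0.0255). Of the 19, 18 were positive, beside 7555 of all 14515 genes, with a median of 1.76. Of the 24 genes, 8 had no count in any healthy brain library. Any of them that passed the filter only through groups in which they were high favour this sign, as for the histone members. The sum over the 24 genes was 28.7 to 105 CPM in healthy rats and 312 to 636 CPM at 4 days. At 10 days 0 of 19 were called and 4 had an unadjusted p under 0.05 (all genes 12.7%), with a median of 1.23.

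Factors that process histone messages or carry histones had no call at 4 days. Of 16 genes for histone message processing, such as the stem-loop binding protein gene Slbp, 0 were called and 2 had an unadjusted p under 0.05 (all genes 14.8%), with a median of 0.18. Of 22 tested histone chaperone genes 0 were called and 4 had an unadjusted p under 0.05, with a median of 0.09. Summed levels overlapped, at 861 to 1120 CPM in healthy rats and 796 to 1167 CPM at 4 days for processing, and 3182 to 3538 CPM and 2788 to 3362 CPM for chaperones. Cenpa, the centromeric H3 gene outside the naming rule, had no count in healthy brain EVs and 0 to 11.3 CPM at 4 days.

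Markers of other cells also differed between healthy rats and control rats at 4 days. The 6 leukocyte markers summed to 7.31 to 21.4 CPM in healthy brain EVs and 138 to 429 CPM at 4 days, although the T-cell, B-cell and neutrophil markers Cd3e, Cd79b and S100a8 were at 0 in both groups. The 2 leukocyte markers tested, Ptprc (4.28) and Lyz2 (3.99), were called higher. The 5 microglia markers summed to 41.6 to 71.1 CPM and 252 to 478 CPM, with 0 of 5 called at 4 days and Csf1r (2.82) and C1qa (3.22) called at 10 days. The 4 astrocyte markers summed to 992 to 1137 CPM and 3178 to 3427 CPM, with Gfap called (2.25), and the 5 neuronal markers to 4547 to 5870 CPM and 2507 to 4279 CPM. At 31 days the control sums were 43.4 to 67.1 CPM for leukocyte, 159 to 292 CPM for microglia and 3642 to 4798 CPM for astrocyte markers. All of these still lay above the healthy ranges, while neuronal markers summed to 3560 to 5330 CPM. The 4 oligodendrocyte markers summed to 2324 to 2699 CPM in healthy rats, 3500 to 5929 CPM at 4 days and 1517 to 1673 CPM at 31 days. The part of these markers in the histone result was not tested, nor was that of the share of counts on annotated genes.

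In plasma EVs, stroke gave no detectable change in single histone genes. Of 43 tested members 0 were called in control rats at 4, 10 and 31 days against healthy rats, beside 0.0679%, 0% and 0% of all 14720 genes. At an unadjusted p under 0.05 there were 4, 1 and 0 of 43 members, beside 5.86%, 5.6% and 4.75% of all genes, and DESeq2 called 1, 1 and 0 of 46, beside 5.25%, 6.85% and 3.77% (Hist1h2aa lower at 4 days and H2afj higher at 10 days). Hist1h1d had 867, 298 and 637 CPM in healthy plasma EVs and 460, 1011 and 513 CPM at 4 days, and the groups overlapped. Hist2h3c2 had 581, 151 and 335 CPM against 181, 291 and 182 CPM. Healthy rat 1 had the highest replication-dependent sum of all plasma libraries, 5727 CPM.

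At 4 days 28 of 33 replication-dependent members were lower in plasma of control rats, beside 8120 of all 14720 genes. Their median log2 difference was -0.74, compared with -0.08 for variants and -0.12 for all genes. Over all members the median was -0.60, and it was -0.04 without healthy rat 1. At 10 and 31 days the replication-dependent medians were -0.11 and -0.35. The hNSCs rats differed from control rats by medians of -0.06, -0.04 and -0.03 at 4, 10 and 31 days, with 0 members called on each day beside 0.00679%, 0% and 0% of all genes. Unadjusted p under 0.05 was reached by 1, 0 and 1 of 43 members, beside 3.94%, 4.06% and 8.57% of all genes. DESeq2 called 2, 0 and 0 members, beside 5.57%, 6.66% and 9.95%. The 2 were H1fnt and Hist3h2ba, named after their values were seen. H1fnt, a testis linker gene, had counts in 1 plasma library only, hNSCs day 4 rat 2 at 5.72 CPM, the library with the highest level of receptor genes.

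Whether plasma and brain EVs changed differently after stroke was tested as the change against healthy rats in plasma minus that in brain, with the rat as a block. Of 41 members 0 were called at 4, 10 or 31 days, beside 0.0371%, 0% and 0.00742% of all genes, and 16, 4 and 0 had an unadjusted p under 0.05, beside 5.14%, 4.57% and 4.1%. At 4 days the median difference was -3.32 for replication-dependent members, -1.18 for variants and -0.58 for all genes. The largest members of this kind with low error were Hist2h3c2 (-4.30, SE 1.04, edgeR adjusted p = 0.339) and Hist1h1b (-5.05, SE 1.34, edgeR adjusted p = 0.354). Calls in brain and none in plasma therefore do not show a difference between the tissues.

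Most histone genes tested were higher in plasma EVs than in brain EVs of the same rats. Of 41 members tested across the 42 libraries, 32 were called higher in plasma and 2 lower, beside 25.7% and 32.4% of all 13470 genes. By class, 27 of 31 replication-dependent and 5 of 10 variant members were called higher. Median log2 fold changes were 3.29, 1.34 and, for all genes, -0.26. Mean class sums in CPM, scaled within each tissue, were 4.13-fold brain in plasma for replication-dependent genes and 1.41-fold for variants. Single libraries overlapped in both classes, at 511 to 1223 CPM in plasma and 315 to 1540 CPM in brain for variants. On summed FPKM the ratios were 26.5 and 11.6. Brain and plasma differ in vesicle isolation and depth as well as in source, and these cannot be told apart.

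Core histone genes had the largest differences. In brain EVs Hist1h2bh (H2B) ran from 0 to 6.14 FPKM with a median of 1.51, and in plasma EVs from 42.7 to 426 FPKM with a median of 104, so no brain library reached a plasma library. Its log2 fold change was 5.00 (SE 0.527, edgeR adjusted p = 9.74e-09). Hist1h2bk (H2B), whose promoter with the octamer is printed above, ran from 0 to 2.52 FPKM in brain and from 8.52 to 134 FPKM in plasma, a log2 fold change of 5.03 (SE 0.855, edgeR adjusted p = 1.78e-05). Hist1h3a (H3) differed by 5.69 (SE 1.16, edgeR adjusted p = 0.000171), Hist1h2bcl1 (H2B) by 5.55 (SE 1.09, edgeR adjusted p = 0.000108), Hist1h2bl (H2B) by 5.45 (SE 1.26, edgeR adjusted p = 0.000648) and Hist1h4b (H4) by 4.62 (SE 0.655, edgeR adjusted p = 1.33e-06). The linker genes Hist1h1c and Hist1h1d differed by 2.94 and 2.64.

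The 5 variants called higher in plasma were H3f3c (4.58), H2afj (3.92), H2afz (3.42), H2afv (3.28) and H3f3b (1.72), on the log2 scale. H3f3c ran from 0.0233 to 1.26 FPKM in brain and from 8.92 to 44.2 FPKM in plasma. H2afy (-0.06), H1f0 (-0.06) and H2afx (0.96) were not called. Called lower in plasma were H2afy2, a second macroH2A gene (-5.67, SE 1.84, edgeR adjusted p = 0.0113), and H1fx (-1.62, SE 0.398, edgeR adjusted p = 0.00113). H1fx had 0.0553 to 5.21 FPKM in brain and 0.146 to 3.17 FPKM in plasma, with plasma higher in 12 of 21 rats, and limma on log2(FPKM + 1) gave 0.25, so its direction depends on the scale. H2afy2 was above plasma in the brain of 12 rats and below in 6.

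**Figure D5:**
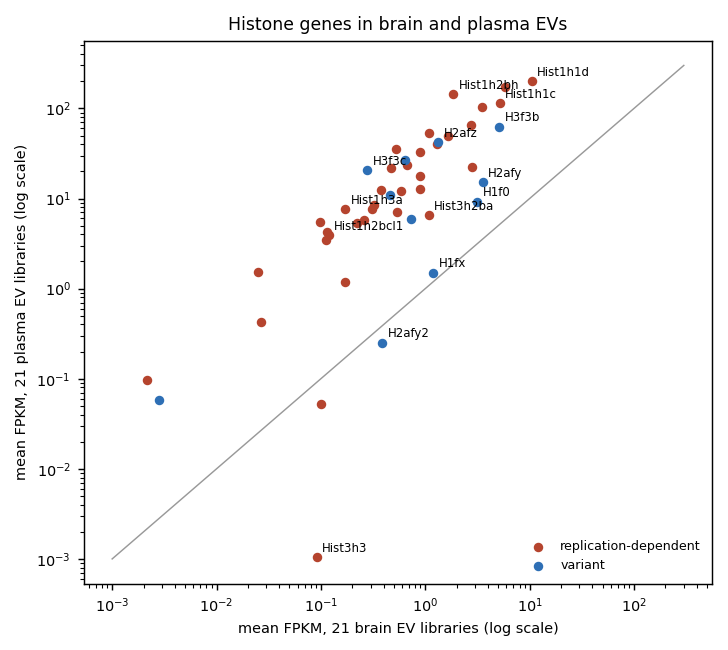
Mean FPKM of each histone gene over 21 brain EV libraries (horizontal, log axis) and 21 plasma EV libraries (vertical, log axis), by class, with the line of equal levels. Most points lie above the line, such as Hist1h2bh at a plasma median of 104 FPKM and a brain median of 1.51 FPKM.

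Rat by rat, FPKM was higher in plasma than in brain in 21 of 21 rats for Hist1h1c, Hist1h1d, Hist2h2aa3, Hist2h3c2, Hist1h2bh and Hist1h4b, and in 20 of 21 for Hist1h1b. FPKM lay higher in plasma for most genes, with 77.4% of all genes called higher by limma on log2(FPKM + 1), and H2afy and H1f0, both at -0.06 in the edgeR fit, were higher in plasma in 20 and 19 of 21 rats on FPKM. With the 3 healthy rats alone, edgeR called 16 of 40 members higher and 0 lower, beside 7.91% and 9.13% of all genes. In the fit over all 21 rats, 25.7% of all genes were called higher in plasma and 32.4% lower. Beside these shares, 11 of 18 tested S phase genes were called higher in plasma and 0 lower. Of 21 chaperone genes 8 were higher, among them Npm1 (4.38) and Nap1l1 (3.16), and 6 lower. Of 14 processing genes Slbp was higher (1.72) and 4 were lower: Ccne1 (-7.05), Cstf2 (-3.46), Srrt (-2.47) and Sympk (-1.65). The list counts were not tested against the shares of all genes, and those of chaperones and processing set neither list apart.

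The members left out of the brain fits for low counts were Hist3h3, Hist1h2af, Hist2h2be, H1fnt, Hist2h4a and Hist1h2ba, and those left out in plasma were Hist3h3, H1fnt and Hist1h1t. Hist3h3, the testis-type H3 gene, was at 0 to 5.32 CPM in brain EVs. Hist1h2ba, a testis-type H2B gene, was at 0 to 0.563 CPM there.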

How the data were processed

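Long-RNA libraries of brain and plasma EVs from 21 rats were analysed. Per the labels and the study's methods, a stranded, random-primed total RNA kit (SMARTer) was used and reads were aligned to Rnor_6.0 with Bowtie2. The authors deposited raw read counts per gene, and the tool, strand setting and handling of multiply mapped reads are not given in the sources used here. The authors also deposited FPKM values, from StringTie. The plasma samples are called serum in the extraction text of the labels. The miRNA tables were not used.

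Counts were restricted to the 18782 annotated rows of 26637, filtered with filterByExpr and scaled with TMM, and 1 model of the 7 groups per tissue was fitted in edgeR 4.0.16 (R 4.3.3). Plasma was compared with brain over all 42 libraries with the rat as a block, since both samples of a rat carry 1 animal number. Calls needed an adjusted p (Benjamini-Hochberg) under 0.05 together with a change over 1.5-fold, the thresholds of the study. CPM values are TMM-scaled within a tissue, and the standard error (SE) is the size of the log2 fold change over the square root of F. DESeq2 1.42.0 and limma 3.58.1 on log2(FPKM + 1), with genes of a mean FPKM of at least 1, were alternatives, as were FPKM + 0.1, other filters and scalings, left-out rats and a replicate block. The scripts were tested on simulated data. Depth per library is given with the results and limits counting precision, above all in brain.

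Members and gene lists were chosen with earlier results of these data known. Named are all members called in a group comparison (at most 8 each), the 8 most abundant of each class and tissue by FPKM, the 6 most changed in each direction between tissues and, of other lists (S phase and mitosis, histone message processing, chaperones, cell type markers), at most 4 called. The comparisons of hNSCs with healthy rats, of 31 with 4 days, of class ratios and of tissue by day were added later. Comparisons with healthy rats share those rats.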

Additional observations from a re-analysis of the deposited data

How the results depend on the processing

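Of brain histone genes against healthy rats, 8 calls (6 at 4 and 2 at 10 days) became 18 with DESeq2, 21, 20 and 14 with limma on log2(FPKM + 1), on log2(FPKM + 0.1) and without the FPKM filter, and 4 with totals over all rows, and lay between 0 and 11 with 1 rat left out. Of the limma calls 10, 10 and 13 were at 31 days, when 96.9%, 91.9% and 47.9% of all genes were called higher. For hNSCs rats against healthy rats 6 became 19, 18, 18, 13 and 3 in the same order (3 to 9 with 1 rat left out), and for 31 against 4 days 7 became 17, 13, 4, 14 and 1 (3 to 7), and 17 with only the compared groups fitted. The 7 were all lower, whereas of the limma calls 3, 1 and 6 were higher, with up to 84.3% of all genes called higher. Between hNSCs and control rats 0 became 4 in brain (0 to 1 with 1 rat left out) and 2 in plasma, and in plasma against healthy rats 0 became 2, all with DESeq2; leaving out a rat gave 0 in both plasma comparisons. Of 32 members higher and 2 lower in plasma than brain, the counts were 16 and 0 with healthy rats alone, limma gave 0 lower, and H1fx reversed to 0.25 (adjusted p = 0.202, limma). The cause was not tested.

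Log2 ratios of class sums in brain against healthy rats, on summed FPKM and on CPM of all rows, were 3.60 and 3.48 for replication-dependent genes at 4 days (2.78 on TMM CPM) and 2.34 and 1.87 at 31 days (0.43), and for variants 2.15 and 1.98 at 4 days (1.22) and 2.19 and 1.51 at 31 days (0.00). In hNSCs against control rats at 4 days the replication-dependent ratio turned to -0.16 and -0.10 (0.41) and that of variants to -0.21 and -0.071 (0.44), while variants were at -0.60 on FPKM at 10 days (0.03). Between 31 and 4 days in hNSCs rats, variants turned from -1.64 to 0.37 on FPKM. In plasma, on CPM of all rows, the replication-dependent ratio of hNSCs to control rats at 4 days was -0.48, that of variants at 10 days against healthy rats -0.63, and that of variants in hNSCs against control rats at 31 days reversed to -0.021 (0.26). The replication-dependent ratio of the latter comparison turned from 0.12 to -0.12 on FPKM and -0.17 on CPM of all rows.

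Replicate numbers 1 to 3 recur in every group but did not pair the animals: over 63 same-number pairs the correlation of deviations averaged 0.0108 in brain (-0.123 to 0.298) and -0.0175 in plasma (-0.328 to 0.249). With the replicate block, 7 brain members were called against healthy rats instead of 8, and 10 instead of 7 for 31 against 4 days. Depth limits the brain libraries, where 23 to 45 of 46 members were detected.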

Other observations

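The effect of hNSCs on single histone genes was also compared between days. In brain EVs 0 of 40 members and in plasma EVs 0 of 43 were called in any of the 3 differences between days by edgeR's quasi-likelihood test with Benjamini-Hochberg adjustment. In brain 3, 1 and 3 members had an unadjusted p under 0.05 for day 10 minus day 4, day 31 minus day 4 and day 31 minus day 10, beside 8.63%, 4.23% and 6.23% of all genes, and in plasma 1 member in each, beside 5.69%, 9.96% and 12.1%.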
